A study of Mus musculus with 5 samples.

Results

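The proteasome subunit genes are the protein-coding genes of the counts table whose symbols run from Psma to Psmg followed by a digit, without the immunoproteasome genes Psmb8, Psmb9 and Psmb10 and without pseudogenes. A sum of at least 10 counts over the 5 libraries was also required. This rule gave 46 of the 55487 genes. The only gene that met the rest of the rule and had too few counts was Psma8, the alpha subunit of testis, which had 0 counts in every library. By known role, 7 of the 46 encode the alpha ring of the core particle and 8 its beta ring. A further 9 encode the base of the regulatory particle, 8 its lid, 6 activators or the inhibitor Psmf1, and 7 assembly factors. The remaining gene, Psmc3ip, fits the letters of the rule but encodes a meiotic recombination factor and is not known as a subunit, so it is kept in the counts below and described apart.

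The RNA came from HT22 cells, a mouse hippocampal neuronal cell line, taken 48 h after transfection with 10 nM siRNA. The KD group holds 1 library given GAS5 siRNA210 and 2 libraries given GAS5 siRNA596. The NC group holds 2 libraries whose titles and protocol give a negative control siRNA, although 1 label field calls them untreated. All libraries are bulk RNA-Seq of 1 immortal line, and no source used here says that replicates were separate cultures, so each *P*-value measures only the spread between these libraries, which may be technical.

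The proteasome is the protease that degrades proteins tagged with ubiquitin, in neurons as in other cells. In its core particle the stacked alpha and beta rings form a barrel, and Psmb5, Psmb6 and Psmb7 carry the proteolytic sites inside it. The regulatory particle caps the barrel: its base unfolds substrates with a ring of ATPases, the Psmc subunits, and its lid removes ubiquitin through Psmd14. The genes are known to rise together when proteasome activity is short, through the transcription factor encoded by Nfe2l1.

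Library totals ran from 30660265 to 36492134 counts. The target RNA was lower than in both NC libraries in 2 of the 3 KD libraries: Gas5 stood at 90.3 and 76.0 CPM (counts scaled to library size with TMM normalization) in NC replicates 1 and 2, at 59.6 with siRNA210, at 65.8 in siRNA596 replicate 1 and at 179 in the library labelled siRNA596 replicate 2. That last library goes against its label. It also did not enter the authors' comparison, since the mean counts they deposited were matched within 0.0977% by the other 4 libraries and differed by up to 345% with all 5. Comparisons are therefore made in the 4 libraries before the fifth is added. With 4 libraries the log2 fold change of Gas5, KD over NC, was -0.41 (standard error 0.11, adjusted *P* = 0.967 from edgeR, with the unadjusted *P* under 0.05), and with 5 it was 0.29 with the unadjusted *P* above 0.05. Because the fifth library was set apart partly for its read of Gas5, the result with 4 libraries is no independent test of the knockdown. Of the 8 neuronal markers examined, Map2 had 833 to 3336 counts and Tubb3 497 to 970, while Rbfox3 had 0 to 2, Syp 4 to 15, Syt1 0 to 6, and Nefl, Snap25 and Dcx 0 in every library. The neuronal label thus rests on 2 of the 8 markers, the others being at or near 0. The glial, immune and endothelial markers had 48 counts or fewer in any library, and Aqp4 and Ptprc had 0.

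Most proteasome genes had more reads than the median gene in HT22 cells, and their levels differed widely. The median tested member stood at 134 CPM over the 4 libraries and the median tested gene at 19.4. Per exon length and scaled to the same total in each library (TPM), the median member stood at 165 TPM over the 4 libraries. Members ran from 0.032 TPM for Psmb11 to 591 for Psmd2. Of the 46, 34 exceeded 100 TPM, a count not made over all genes. Together the members took 0.825% and 0.898% of the TPM in NC replicates 1 and 2, 0.829% with siRNA210 and 0.839% in siRNA596 replicate 1. In siRNA596 replicate 2 they took 1.33%. The last share lay above those of the other 4 libraries. Since these are bulk samples, fewer cells of a kind and less RNA per cell cannot be told apart in any of these values.

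**Figure D1:**
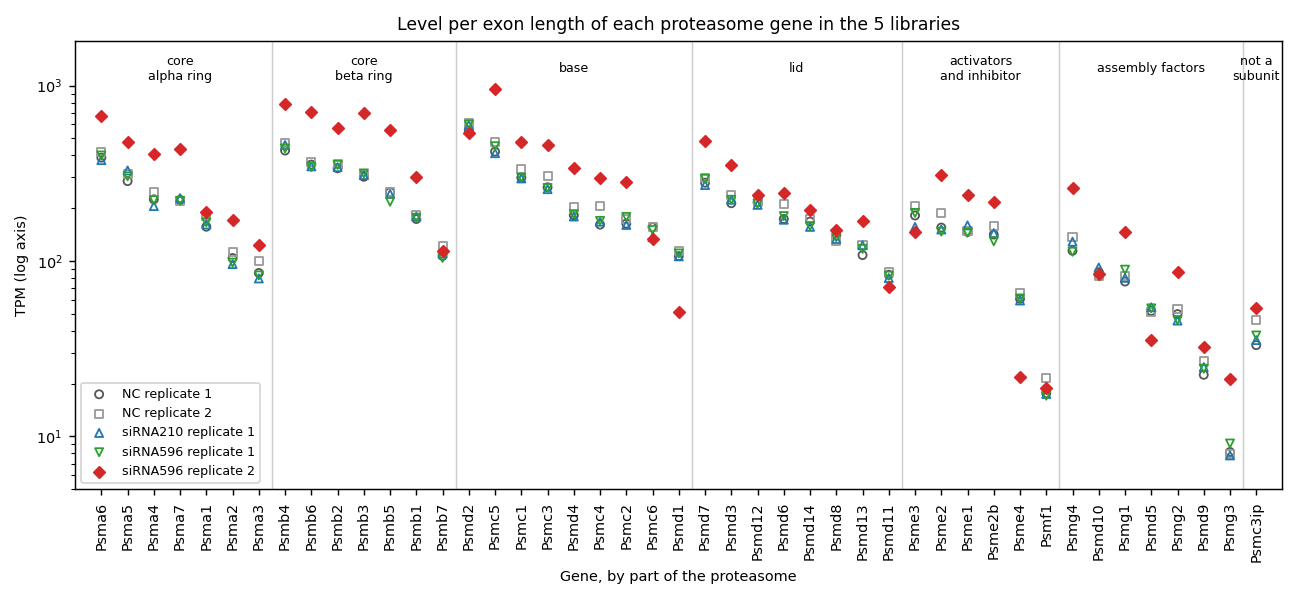
Level of 45 proteasome genes in each of the 5 libraries, in TPM on a log axis, grouped by part of the proteasome and ordered by the mean of the 4 libraries within each group; Psmb11, near 0, lies below the axis. Open symbols are the 4 libraries of the comparison, which nearly coincide for most genes, and filled diamonds are siRNA596 replicate 2, which lies above them for 35 genes and below them for 7. The same counts were not made over all genes in TPM.

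Among alpha subunits, which form the outer gates of the barrel, Psma6 had the highest level per length, 396 ± 18.8 TPM (SD, n = 4 libraries), and Psma3 the lowest, 86.8 ± 8.78. Psma6 read 388 and 420 TPM in the NC libraries, 376 with siRNA210 and 399 in siRNA596 replicate 1. Its KD and NC libraries overlapped. Psma3 read 85.4 and 99.4 TPM in the NC libraries and 79.5 and 82.7 in the KD pair, so both KD libraries lay below both NC libraries by less than the gap between the NC libraries.

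Among beta subunits Psmb4, which has no catalytic site, was highest at 449 ± 20.9 TPM (SD, n = 4), with 426 and 473 in NC and 458 and 438 in KD. The catalytic subunits stood at 352 ± 9.70 TPM for Psmb6 (caspase-like activity), 238 ± 14.1 for Psmb5 (chymotrypsin-like activity) and 111 ± 7.49 for Psmb7 (trypsin-like activity). Psmb6 thus exceeded Psmb7 by more than the spread of either over the 4 libraries. The lowest beta gene was Psmb11, the catalytic subunit of the thymus cortex. It had 0 counts in both NC libraries, 2 with siRNA210, 4 in siRNA596 replicate 1 and 14 in siRNA596 replicate 2. It was the 1 member that did not pass edgeR's filter on low counts, so 45 of 46 members were tested in the fit of the 4 libraries and in that of all 5. It met the rule's minimum of 10 counts only through siRNA596 replicate 2, so its higher count there is no finding. Psmb11 (chromosome 14, 54621433 to 54629556, plus strand, GRCm38) starts close to Psmb5 (chromosome 14, 54614119 to 54618022, minus strand).

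In the base, Psmd2, a scaffold that holds ubiquitin receptors and shuttles, had the highest level of all members, 591 ± 25.0 TPM (SD, n = 4). It read 555 and 613 TPM in the NC libraries, and both KD libraries of the 4 lay between these values, although in CPM both lay above NC, since TPM and CPM scale each library differently. The ATPase subunit Psmc5 followed in the base at 440 ± 30.6 TPM. Psmd1, the other large scaffold of the base, was lowest there at 109 ± 3.78 TPM. The neighbours Psmb4 and Psmc5 in this order of levels did not differ beyond their spread. With the longest annotated transcript as the length they did, at 563 ± 26.7 TPM for Psmb4 and 335 ± 23.5 for Psmc5. In the lid, levels ran from 285 ± 12.4 TPM for Psmd7, the partner of the deubiquitinase Psmd14, to 83.1 ± 2.71 for Psmd11. Psmd14 itself stood at 164 ± 8.17 TPM.

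The activators and the inhibitor spanned a wide range. Psme3, subunit of a nuclear activator, stood at 183 ± 20.7 TPM (SD, n = 4), Psme2 and Psme1, subunits of the activator that interferon induces, at 160 ± 18.6 and 150 ± 6.68, and the large single-chain activator Psme4 at 61.9 ± 2.79. Psmf1, the inhibitor, was lowest of this group at 18.4 ± 2.03 TPM. Of the assembly factors, Psmg4 was highest at 123 ± 11.8 TPM and Psmg3, its partner chaperone of the alpha ring, lowest at 8.26 ± 0.590. The chaperones of the base, Psmd10, Psmd5 and Psmd9, stood at 85.7, 52.9 and 24.6 TPM. Psmc3ip stood at 38.1 ± 5.72 TPM. These orders rest on annotated lengths. With the longest transcript in place of all exons the median member was at 184 TPM and the ranks over the 46 genes correlated at 0.93 (Spearman, a description over genes with no test). Under that length Psmd10, Psmd5 and Psmd9 stood at 67.0, 66.2 and 51.6 TPM and Psmd1 at 194, Psmc4 rather than Psmd1 was lowest in the base and Psme2 rather than Psme3 was highest among activators.

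Between the KD and NC groups of the 4 libraries, no proteasome gene passed the test. Psmb5 read 61.2 and 59.6 CPM in NC replicates 1 and 2, 61.2 with siRNA210 and 53.7 in siRNA596 replicate 1, a log2 fold change of -0.07 (95% interval -0.30 to 0.15). Psmb6 read 183 CPM in both NC libraries, 183 with siRNA210 and 176 in siRNA596 replicate 1, a log2 fold change of -0.03 (-0.20 to 0.15). Psmb7 read 101 and 111 CPM in NC against 106 and 97.7 in KD, a log2 fold change of -0.06 (-0.26 to 0.14). For each of the 3 catalytic genes the siRNA210 library lay among the NC values or at their edge and siRNA596 replicate 1 lay below both.

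Of the 45 members tested by edgeR's quasi-likelihood test, 0 had an unadjusted *P* under 0.05, where 3.3% of the 15867 genes tested did, and 0 had an adjusted *P* under 0.05, where 0.0% of all genes did. The smallest unadjusted *P* of a member was 0.115, for Psma3, and the smallest adjusted *P* from edgeR was 0.967. DESeq2 gave 0 members by either criterion, and over all genes 368 with an unadjusted *P* under 0.05 and 1 with an adjusted *P* under 0.05. The median log2 fold change of the members was -0.03, with 19 of 45 above 0, and that of all genes was -0.0023, with 49.5% above 0. The standard errors of members ran from 0.076 to 0.19. For 44 of the 45 members the whole 95% interval lay within 0.5 of 0 on the log2 scale, as it did for 53.6% of all genes, and the exception was Psmg3, with an interval of -0.33 to 0.53. A change of 2-fold in either direction thus lay outside the interval of every member tested.

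**Figure D2:**
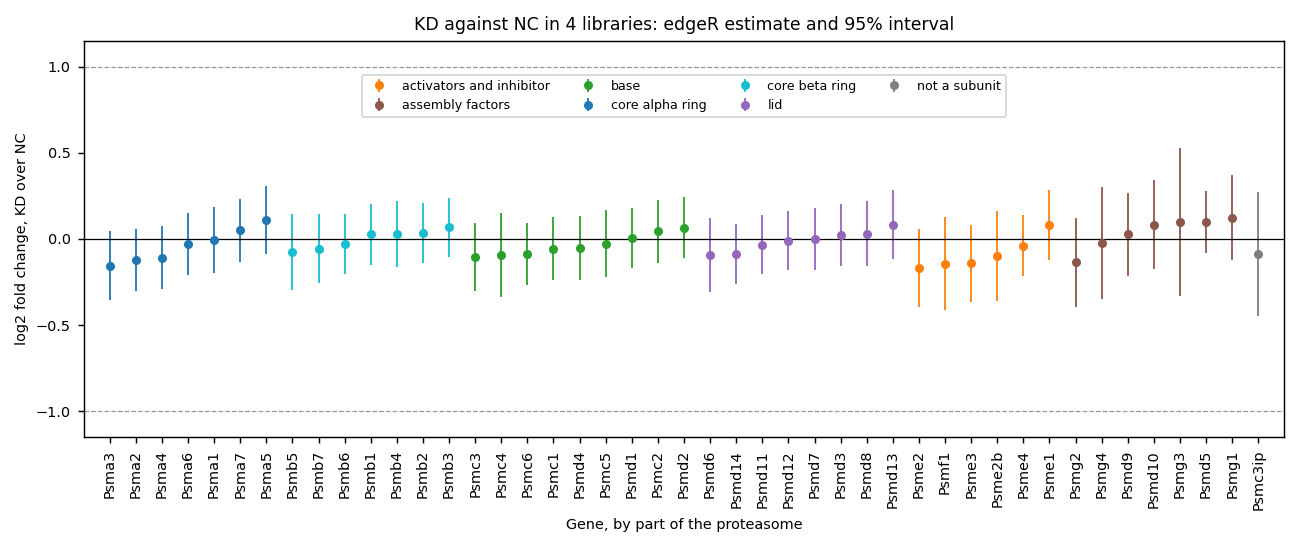
Log2 fold change of 45 proteasome genes between the KD group (siRNA210 and siRNA596 replicate 1) and the NC group (2 libraries), as points with 95% intervals from edgeR, grouped by part of the proteasome; dashed lines mark a 2-fold change. Estimates run from -0.17 for Psme2 to 0.12 for Psmg1, and every interval includes 0.

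The lowest estimates were those of Psme2, Psma3 and Psmf1. Psme2 read 75.4 and 88.7 CPM in NC, 75.3 with siRNA210 and 71.2 in siRNA596 replicate 1 (log2 fold change -0.17, 95% interval -0.39 to 0.06). Psma3 read 91.7 and 104 CPM in NC against 87.5 and 88.4 in KD (-0.16, interval -0.36 to 0.05). Psmf1 read 31.3 and 37.0 CPM in NC against 31.8 and 30.2 in KD (-0.14, interval -0.41 to 0.12). In each of the 3 genes NC replicate 2 was the high library and NC replicate 1 lay close to the KD pair.

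The highest estimates were those of Psmg1, Psma5 and Psmd5. The alpha ring chaperone Psmg1 read 28.3 and 29.7 CPM in NC, 30.4 with siRNA210 and 32.9 in siRNA596 replicate 1 (log2 fold change 0.12, 95% interval -0.12 to 0.37). Psma5 read 104 and 111 CPM in NC against 122 and 110 in KD (0.11, interval -0.09 to 0.31). Psmd5, a chaperone of the base, read 103 and 99.5 CPM in NC against 111 and 107 in KD (0.10, interval -0.08 to 0.28). For Psmg1 and Psmd5 the KD and NC libraries did not overlap, and for Psma5 they did.

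By part of the proteasome, median log2 fold changes were -0.03 for the alpha ring, 0.03 for the 7 beta genes tested, -0.05 for the base, -0.0043 for the lid, -0.12 for activators and inhibitor and 0.08 for assembly factors. Psmc3ip read 16.6 and 22.5 CPM in NC against 18.2 and 18.8 in KD, a log2 fold change of -0.09 with the 2 NC libraries further apart than the groups. Both KD libraries lay on the same side of both NC libraries for 14 of 45 members (31.1%), and for 32.8% of all genes tested. In CPM the 5 that lay above were Psmb2, Psmb3, Psmd2, Psmd5 and Psmg1, and the 9 below included Psma2, Psma3, Psma4 and Psme2.

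The members' estimates moved with the NC library used. NC replicate 2 was the highest of the 4 libraries for 26 of 45 members, where it was for 32.5% of genes, and NC replicate 1 the lowest for 17, where it was for 21.3%. The log2 ratio of NC replicate 2 to NC replicate 1, over CPM plus 0.5, had a median of 0.07 over members, was above 0 for 35 of them, where 48.7% of genes were, and ran from -0.14 for Psmd8 to 0.43 for Psmc3ip. The median over all genes was -0.0077. No member passed 1.5-fold between the NC libraries, where 9.37% of genes did in either direction. Without NC replicate 1, 7 of 45 members (15.6%) had an unadjusted *P* under 0.05, each lower in KD, where 7.06% of all genes tested were called lower. The NC group then holds 1 library, assumed to vary like the KD pair, from which alone the spread comes, and that library is the highest of the 4 for many members. They were Psmc4, Psma3, Psme2, Psmd6, Psmc3, Psmf1 and Psmc3ip, with log2 fold changes of -0.29 to -0.19 and adjusted *P*-values from edgeR of 0.243 to 0.297. Without NC replicate 2 the median turned to 0.03 and 0 members had an unadjusted *P* under 0.05.

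The levels of members were narrow over the 4 libraries. The highest library exceeded the lowest by less than 1.25-fold for 43 of 45 members (95.6%), where 48.0% of all genes did, with a median of 1.12-fold against 1.26-fold. The narrowest was the lid gene Psmd12, which read 157 and 155 CPM in NC, 156 with siRNA210 and 154 in siRNA596 replicate 1. The widest were Psmc3ip at 1.36-fold and Psme3 at 1.25-fold, with 148 and 163 CPM in NC, 130 with siRNA210 and 152 in siRNA596 replicate 1 for Psme3. The members also had more reads than most genes, a median of 134 CPM against 19.4, and a gene with more reads has less counting error, whose part in the narrow range was not tested.

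Taken 1 library at a time, neither siRNA210 nor siRNA596 replicate 1 moved any member by 1.5-fold from the NC mean, where 4.01% and 3.64% of genes moved that far in either direction. With siRNA210 the median log2 ratio of members was -0.0004 and the range ran from -0.25 for Psme3 to 0.18 for Psma5. In siRNA596 replicate 1 the median was -0.02, from -0.20 for Psme2 to 0.18 for Psmg1. These ratios have no replicate and no test.

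The library labelled siRNA596 replicate 2 read otherwise. Psmb5 stood at 225 CPM there, against 53.7 to 61.2 in the other 4 libraries. Psmb6 stood at 590 CPM against 176 to 183, and Psmb7 at 175 against 97.7 to 111. The 3 catalytic genes were therefore 3.71-fold, 3.22-fold and 1.65-fold above the NC mean. Over all members the median log2 ratio was 1.39, where that of all genes was -0.06. On this scale 39 of 45 members (86.7%) were over 1.5-fold higher, where 25.0% of genes were, and 31 (68.9%) were over 2-fold higher, where 13.4% were. Over 1.5-fold lower were 29.3% of all genes but 1 member, Psme4. The library stood above all 4 others for 43 members (95.6%), where it did so for 40.1% of genes. It lay below all 4 for Psme4 and Psmd1, a count not made over all genes. It is a single library, and its read of Gas5 goes against its label, so none of these ratios is a measure of GAS5 knockdown with a replicate.

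**Figure D3:**
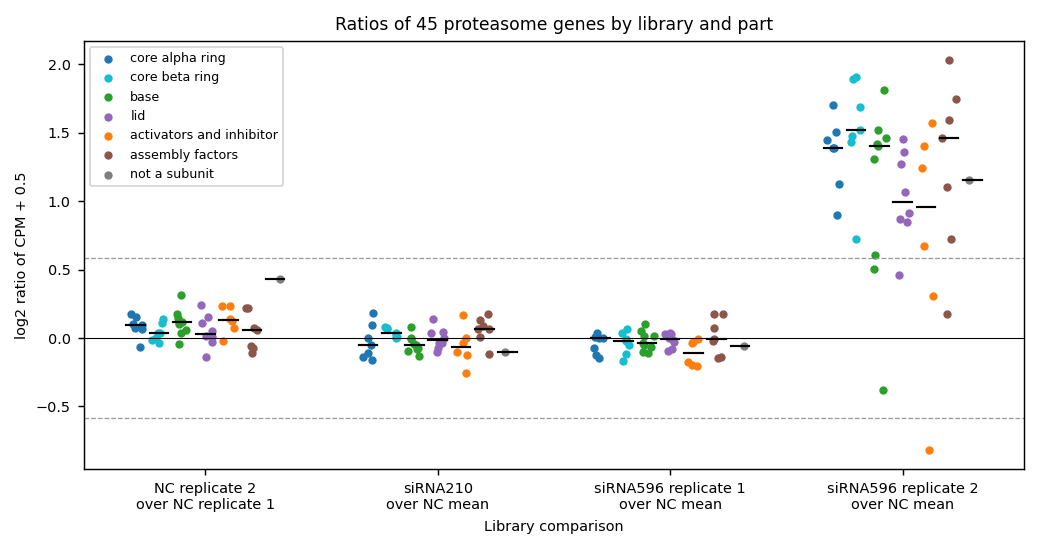
Log2 ratio of CPM plus 0.5 for 45 proteasome genes in each library comparison, 1 point per gene coloured by part of the proteasome, with short bars at the median of each part and dashed lines at 1.5-fold. Points of the first 3 comparisons lie between -0.25 and 0.43, and those of siRNA596 replicate 2 between -0.82 and 2.03.

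Higher reads in that library were found in each part of the proteasome. The median log2 ratio was 1.39 in the alpha ring, where 7 of 7 genes were over 1.5-fold higher, from 0.90 for Psma1 to 1.70 for Psma7. In the beta ring it was 1.52, with 7 of the 7 tested genes over 1.5-fold higher, and Psmb3 led at 717 CPM against 189 to 201 in the other libraries. In the base it was 1.41, with 7 of 9, led by Psmc5 at 598 CPM against 162 to 179. Psmd2 read 975 CPM against 618 to 679. The exceptions in the base were Psmc6, at 210 CPM against 135 to 150, and Psmd1, which was lower at 167 CPM against 214 to 223.

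In the lid the median log2 ratio was 0.99 and 7 of 8 genes were over 1.5-fold higher, from 0.46 for Psmd11, with 203 CPM against 144 to 148, to 1.46 for Psmd7, with 487 CPM against 173 to 182. The activators were the most mixed. Psme2 read 244 CPM against 71.2 to 88.7, Psme3 read 193 against 130 to 163, and Psme4 was lower, at 81.7 against 141 to 148. The median over the 6 was 0.96. Of the assembly factors 6 of 7 were over 1.5-fold higher with a median of 1.46. The highest ratio of all members was that of Psmg3, with 27.4 CPM against 6.17 to 7.23 (log2 ratio 2.03). The exception was Psmd5, at 114 CPM against 99.5 to 111. Psmc3ip read 44.1 CPM against 16.6 to 22.5.

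The log2 ratio of that library to NC fell as transcript length rose. Across members the Spearman correlation of the log2 ratio with the length of the longest annotated transcript was -0.58 (45 genes), and across all genes it was -0.48 (16127 genes). In the other 3 library comparisons it lay between -0.09 and 0.20 over members. These correlations are across genes of 1 library, which share its depth and are not independent replicates. Among transcripts under 1500 bases, 17 of 17 members were over 1.5-fold higher with a median log2 ratio of 1.46, where 48.9% of 3485 genes were, with a median of 0.54. From 1500 to under 2500 bases the members' median was 1.41, with 14 of 15 over 1.5-fold higher, and that of genes 0.40, with 39.3% over. At 2500 bases or more the members' median was 0.67, with 8 of 13 over, and that of genes -0.35, with 11.5% over. The members' median thus lay above that of genes in all 3 ranges, and both medians declined with length. The ranges are wide, and members and genes were not matched for length within them or for read level. Psme4 and Psmd1, the lower members, have longest transcripts of 6491 and 3112 bases. The part that length, RNA quality or library preparation has in these ratios was not tested.

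**Figure D4:**
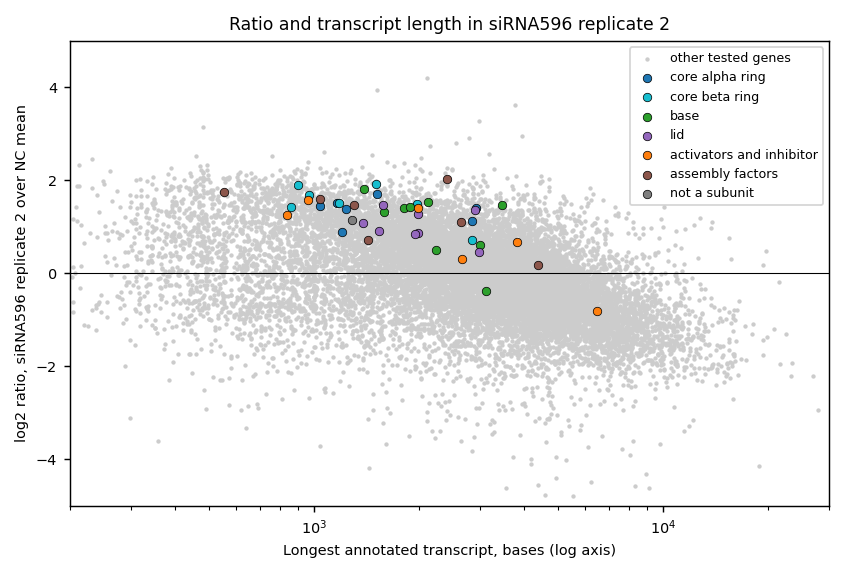
Log2 ratio of siRNA596 replicate 2 to the NC mean against the length of the longest annotated transcript, on a log axis, for 45 proteasome genes (coloured by part) and the other tested genes (grey); 147 of 16127 genes lie outside the axes, none of them a member. Ratios fall with length in both, and the members lie in the upper part of the grey cloud, the longest of them, Psme4, at -0.82.

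The size of this difference depended on the scale. With library size alone in place of TMM the members' median log2 ratio was 1.11 and that of all genes -0.29, so members stood 1.40 above the genes' median on that scale and 1.45 above it with TMM. By library size 34 members were over 1.5-fold higher and 2 lower, where 17.7% of genes were higher and 37.4% lower. TPM differs from CPM between libraries by 1 further factor for each library, the same for all genes. On that scale siRNA596 replicate 2 stood above the other 4 libraries for 35 members and below them for 7, which were Psmc6, Psmd1, Psmd2, Psmd5, Psmd11, Psme3 and Psme4. The same counts were not made over all genes in TPM, so they have no background share. For Psmd2, Psmc6, Psmd11, Psme3 and Psmd5 the direction was thus higher in CPM and lower in TPM, as can happen to genes of small ratio when a whole library is rescaled. Under library size alone Psmd5 also lay below the other 4 and Psme3 among them.

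With all 5 libraries as labelled, the median log2 fold change of members between KD and NC was 0.60, with 43 of 45 above 0, beside a median of 0.01 and 51.0% above 0 over the 16142 genes tested. By edgeR 0 members had an unadjusted *P* under 0.05, where 0.372% of genes did, and 0 had an adjusted *P* under 0.05, where 0.0% of genes did. The highest estimates were 1.11 for Psmg3 (standard error 0.71, adjusted *P* = 0.963 from edgeR), 0.97 for Psmb3 and 0.91 for Psmb5, and the lowest were -0.25 for Psme4, -0.11 for Psmd1 and 0.03 for Psme3. Standard errors ran from 0.19 to 0.71, and no member had an interval within 0.5 of 0, where only 0.60% of all genes did. DESeq2 gave 0 members with an unadjusted or adjusted *P* under 0.05, and 87 and 0 genes over all. Leaving out siRNA596 replicate 2 took the median from 0.60 to -0.03. In a fit with each siRNA as its own group, siRNA596 and siRNA210 differed at an unadjusted *P* under 0.05 in 0 of 45 members and in 40 of 16142 genes, with a smallest adjusted *P* of 0.978 among members from edgeR. The siRNA210 group there has 1 library and the siRNA596 group holds the library that goes against its label, so this test could call few genes and does not show that the siRNAs act alike.

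Letters at the start sites were searched because members stood together in 1 library. RefSeq promoter windows of GRCm38.p6, from 250 bases before to 50 after each gene's start, matched 39 of the 46 members by symbol, and 9 short motifs were searched on both strands. The core of the antioxidant response element, which Nfe2l1 and Nfe2l2 bind, was searched as TGACNNNGC and found in 6 of 39 members (15.4%) and in 14.0% of all 27025 genes with a window. It is shown here, in capitals, for 3 members in which it occurs, read in the direction of the gene, with the capitals holding its reverse complement where it lies on the other strand.
Psmb5, chr14:54618024-54618052, minus strand: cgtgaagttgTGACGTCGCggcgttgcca
Psmd9, chr5:123228149-123228177, plus strand: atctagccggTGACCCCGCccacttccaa
Psmc6, chr14:45329587-45329615, plus strand, match on the other strand: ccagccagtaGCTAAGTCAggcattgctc

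The core letters bound by ETS factors, searched as CCGGAAG, were found in 15 of 39 members (38.5%) and in 9.93% of all genes with a window. They occurred in genes of each part except the beta ring, and 5 windows are shown with the match in capitals, where CTTCCGG is the same motif on the other strand.
Psma6, chr12:55398683-55398709, plus strand: gagccaccacCCGGAAGcccgcggacc
Psmc1, chr12:100110164-100110190, plus strand: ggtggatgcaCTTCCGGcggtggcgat
Psmd2, chr16:20651616-20651642, plus strand: ccgcagggcgCTTCCGGtctggaggac
Psmd4, chr3:95042723-95042749, minus strand: tacagctgttCCGGAAGctgctgcgaa
Psmg1, chr16:95991013-95991039, minus strand: tcgcggcggaCCGGAAGctcttaggtt

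The other 7 motifs gave these shares. TGAGNNNGC, the other form of the antioxidant element, was in 13 members (33.3%) and 19.8% of genes. CCAAT was in 14 (35.9%) and 41.1%, and GGGGCGGGG, an Sp1 site, in 5 (12.8%) and 12.9%. TATAAA was in 3 (7.69%) and 15.7%. The palindrome of nuclear respiratory factor 1, a different factor from that encoded by Nfe2l1, was in 2 (5.13%) and 1.07%. AAGATGGCG, of YY1, was in 2 (5.13%) and 1.64%. The heat shock element was in 0 members and 0.662% of genes. The shares over genes take in every gene with a window, read in HT22 cells or not, and are not matched for base content. Each motif was counted on its own, and 1 window may hold several. These are matches of letters and not sites of binding, and no match says only that the letters are not in the window.

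Genes around the proteasome that are not members were read from lists of the same pathway. With 4 libraries 1 of 33 tested, Rps27a, had an unadjusted *P* under 0.05, as 3.3% of all genes did, and 0 had an adjusted *P* under 0.05, and with 5 libraries 0 had either. Rps27a, which encodes ubiquitin fused to a ribosomal protein, read 393 and 290 CPM in NC, 304 with siRNA210 and 197 in siRNA596 replicate 1 (log2 fold change -0.45, adjusted *P* = 0.967 from edgeR). Its siRNA210 library lay between the NC libraries, and the fold change ran from -0.80 without siRNA210 to -0.17 without siRNA596 replicate 1. It read 1495 CPM in siRNA596 replicate 2.

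The catalytic subunits of the immunoproteasome replace those of the standard core in immune responses. Psmb8 and Psmb10 differed by over 1.5-fold between the NC libraries. Psmb8 read 19.1 and 11.7 CPM in NC and 19.8, 22.1 and 36.7 in siRNA210 and siRNA596 replicates 1 and 2. Psmb9 read 5.94 and 4.48 in NC and 6.90, 6.09 and 5.26 in the same order. Psmb10 read 26.2 and 43.4 in NC and 30.4, 29.9 and 133.

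The maturation factor Pomp read 91.0 and 96.5 CPM in NC, 94.6 with siRNA210, 83.0 in siRNA596 replicate 1 and 242 in siRNA596 replicate 2. Usp14, a deubiquitinase that docks on the base, read 80.9 and 89.2 in NC, 85.1 with siRNA210, and 91.6 and 80.8 with siRNA596. In siRNA596 replicate 2, 5 of the 9 other subunits and assembly genes were over 1.5-fold higher, led by the lid subunit Sem1 at 367 CPM against 94.2 to 103, and 1 was lower. Over all genes 25.0% were over 1.5-fold higher in that library and 29.3% lower.

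The transcription factor Nfe2l1 read 360 and 322 CPM in NC, 392 with siRNA210, 355 in siRNA596 replicate 1 and 266 in siRNA596 replicate 2. Nfe2l2 read 94.6 and 63.8 in NC, 93.6 with siRNA210, and 89.4 and 63.6 with siRNA596. These are levels of RNA, and the activity of the encoded factors was not tested. In siRNA596 replicate 2, 0 of the 4 regulators passed 1.5-fold in either direction. Of the 11 shuttles and segregase genes 1 was over 1.5-fold higher there, Vcp, and 1 lower, Ddi2, with a median log2 ratio of -0.02. Of the 6 ubiquitin and E1 genes 4 were over 1.5-fold higher, and Uba6, an activating enzyme, was lower at 15.4 CPM against 53.6 to 59.7. Beside each of these lists, 25.0% of all genes were over 1.5-fold higher in that library and 29.3% over 1.5-fold lower.

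Several members share sequence with other loci, which counting of short reads may split. In 21 of the 46 members no 50-base stretch of exon recurred in another annotated gene, in 9 over 10% of such stretches did, and in 2 over 50% did. The 2 were Psme2b, of which 69.3% was shared and whose partner is Psme2, and Psmb5, of which 54.1% was shared, mostly with the processed pseudogene Gm3375. Gm3375 had 1848 and 2577 counts in NC, 2209 with siRNA210, 2437 in siRNA596 replicate 1 and 4354 in siRNA596 replicate 2. With Gm3375 added, Psmb5 read 114 and 127 CPM in NC, 123 and 122 in the KD pair and 390 in siRNA596 replicate 2, so the KD pair then lay between the NC libraries. Psme2 and Psme2b together read 108 and 124 CPM in NC, 109 and 101 in the KD pair and 326 in siRNA596 replicate 2. Psma5 shared 49.1% of its stretches, and the levels of Psme2b, Psme2, Psmb5 and Psma5 are uncertain to that extent. Psma3 shared 15.4%, with the processed pseudogene Gm13835. Gm13835 had 1341 and 1721 counts in NC, 1446 with siRNA210 and 1472 in siRNA596 replicate 1. With Gm13835 added, Psma3 read 129.8 and 148.6 CPM in NC, 127.9 with siRNA210 and 129.5 in siRNA596 replicate 1. Its level and its place as the lowest alpha gene are thus uncertain as well. Exons of 13 members overlapped those of another gene, over 20% of their length in Psmd9 (25.5%, with the antisense gene Gm26745) and Psmc3ip (21.2%, with Mlx). No source used here gives a strand setting, so reads of such pairs cannot be told apart.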

How the data were processed

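Poly(A) RNA of 5 HT22 libraries was sequenced. The deposited counts were made by the authors with Trimmomatic, HISAT2 2.1.0 on GRCm38, SAMtools 1.7 and featureCounts 2.0.1 and are not normalized. Handling of multi-mapped reads is not given in the sources used here. The authors' second table, from DESeq2 1.26.0, also holds fold changes, standard errors and *P*-values, which were not used. Its normalized mean signal, as deposited, served only to find which libraries had entered.

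Genes were named from GENCODE M21 (99.5% of identifiers), which also gave lengths for TPM. Counts were normalized with TMM and tested with the quasi-likelihood method of edgeR 4.0.16 (R 4.3.3) after filterByExpr, with Benjamini-Hochberg adjustment over all genes tested. DESeq2 1.42.0, other scalings and filters, a robust fit, a length offset, a replicate block and left-out libraries were alternatives. Library ratios used CPM plus 0.5. In simulated data of 4 independent libraries 97% of 2-fold and 62% of 1.5-fold changes, made only in genes above a minimum count, passed an adjusted *P* of 0.05. There were 4 false calls among 15772 genes, and 11 among 15958 with 5 libraries. The dispersion was fixed and not estimated from these data, so these shares do not measure the power of the fits above.

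Members and lists were chosen with earlier results of these data known. Named in full are Gas5, the catalytic genes, the extremes of each part by level and of each fit by fold change, any gene with an unadjusted *P* under 0.05, genes with few counts, Psmc3ip, and chosen pathway genes. Others were named after their values were seen. Paaf1, of the pathway lists, was not analysed here.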

Additional observations from a re-analysis of the deposited data

Results flagged for a closer look

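The library labelled siRNA596 replicate 2 lies outside the comparison of 4 libraries. It was set apart for its read of Gas5 and because it did not enter the authors' comparison. Flagged here is its level in the members. In that library 39 of 45 members were over 1.5-fold above the NC mean, as were 25.0% of all genes. The median log2 ratio was 1.39 over members against -0.06 over all genes. By comparison the log2 ratios of NC replicate 2 to NC replicate 1 ran from -0.14 to 0.43. The difference has no replicate and was not tested, and the part of transcript length or of the preparation of that library was not tested.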

How the results depend on the processing

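With 4 libraries, 0 members had an unadjusted *P* under 0.05 under DESeq2's test or size factors, library size only, no filter, 10 counts in every library or a robust fit. With each library left out in turn the count ran from 0 to 7, and the median log2 fold change from -0.064 to 0.028. Without NC replicate 1 the count was 7, and without NC replicate 2 the median was 0.028. With all 5 libraries the count was 1 with no filter, which was Psmb11, beside 175 of 27363 genes. Psmb11 met the rule's minimum of counts only through siRNA596 replicate 2, so this call is no finding. For siRNA596 against NC the count was 1 with the replicate block, beside 428 of 15827 genes. That member was Psmg3 (log2 fold change 1.16, adjusted *P* = 0.9995 from edgeR). Without the block the count was 0, beside 41 genes, and the medians were 0.66 with it and 0.84 without. The replicate numbers pair samples by number only, and the replicate block changed no other call of a member. The median with 5 libraries ran from -0.028 to 0.84 with each library left out, and was -0.028 without siRNA596 replicate 2 and 0.34 with an offset for length. The number of members with an adjusted *P* under 0.05 was 0 in both fits and in every alternative run.

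The log2 fold change of Gas5 with 4 libraries ran from -0.53 to -0.28 with each left out, and was -0.34 without siRNA210, where its unadjusted *P* was above 0.05 and the call was lost. With 5 libraries it ran from -0.41 to 0.56, and was -0.41 without siRNA596 replicate 2. Rps27a had an unadjusted *P* above 0.05 under DESeq2, under a robust fit and without either NC library or siRNA596 replicate 1. The median member was at 184 TPM by longest transcript. In siRNA596 replicate 2, 31 members passed 2-fold, and 34 passed 1.5-fold by library size. The cause of these shifts was not tested. With 1 library of siRNA210 and 2 or 3 in each fitted group, few libraries limit the precision of each estimate.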
